A study of Mus musculus with 12 samples.

Results

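Fuel choice in the brain was examined through 10 genes with a part in whether cells burn glucose or fat: the pyruvate dehydrogenase kinases Pdk1, Pdk2, Pdk3 and Pdk4, the adiponectin receptors Adipor1 and Adipor2, and Cpt1a, Angptl4, Txnip and Ddit4. They were chosen by gene symbol out of 19935 genes with a uniquely named probe set. Each of the 10 had 1 probe set, so 10 of 21780 tested probe sets are described. RNA came from the striatum, a forebrain region with dense dopamine input, of male Swiss-Albino mice aged 2 months. Each Affymetrix Mouse Gene 1.0 ST array, which reads transcripts with probes along their whole length, held RNA combined from 4 mice. Butyrate-morphine mice (titled ButMorphine, 3 arrays) received sodium butyrate, an inhibitor of histone deacetylases, at 300 mg/kg and then morphine at 20 mg/kg in each of 6 induction trials on alternate days. Morphine mice (titled SalMorphine, 3 arrays) received vehicle and then morphine at the same dose. Saline mice (titled Saline, 6 arrays) received vehicle in both injections. A challenge followed 7 days after the last trial, and tissue was taken 1 h later. Both morphine groups were challenged with morphine at 20 mg/kg, but for the saline group the source names give saline and the protocol text gives morphine. Whether a difference from saline includes the acute effect of the challenge therefore cannot be told from the labels.

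The pyruvate dehydrogenase kinases phosphorylate and switch off the pyruvate dehydrogenase complex, the mitochondrial gate through which pyruvate from glucose becomes acetyl-CoA. Pdk4 is the member best known for its induction by fasting and by glucocorticoids in muscle and liver, where it spares glucose while fat is burned. Adiponectin, a hormone of fat tissue, acts through Adipor1 and Adipor2, which in liver are linked to AMP-activated kinase and to the nuclear receptor PPAR alpha. Neurons run mainly on glucose and lactate, while fatty acid oxidation in the brain is attributed mostly to astrocytes.

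The members were proposed with their differences from saline already known, Pdk4 and Adipor2 being among the leading rises. Their values against saline are therefore given as a description: they are counted against a threshold beside all probe sets, with no p-value printed and nothing read from the count. Of the 10 genes only the difference between the butyrate-morphine and morphine groups is read as a test. Genes of the pathway lists are set against saline with p-values as well. Those lists too were chosen with earlier results of these data known, so these p-values may carry the same selection. All values are log2 differences from a baseline that the authors had subtracted, so the level of each gene is lost, but for the rounding class given below, and genes cannot be ranked by abundance. In every row, saline arrays 1 and 2, 3 and 4, and 5 and 6 mirror each other around 0, which fixes the saline mean at 0 and leaves 3 independent saline values per gene. The fit counts all 6 saline arrays, so its p-values may be too small and its 95% intervals too narrow. Each pair averages 0, so differences between pairs are absent from these values, and the saline ranges and SDs may be too narrow too. Fits with 1 array of each pair do not restore them. With saline arrays 1, 3 and 5 or 2, 4 and 6 alone, 135 probe sets in either case, in place of 512, were called in the butyrate-morphine comparison and 102 or 166, in place of 534, in the morphine comparison. Array medians lay between -0.02 and 0.01. The rounding of the numbers shows whether a probe set's value before centring was 8 or more on the log2 scale, as for 26.2% of tested probe sets. All 8 measured markers of striatal projection neurons of the 10 listed (among them Drd2, Ppp1r1b and Penk) were in that class, as were Pdk2, Pdk3, Adipor1 and Adipor2, while Pdk4, Txnip, Ddit4, Pdk1, Cpt1a and Angptl4 were below 8. Of 9 choroid plexus markers 0 were in it, 7 were below and the class of the rest could not be read, and all 8 thalamic and septal markers were below.

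The promoters of Pdk4, Adipor2, Txnip and Ddit4 are shown because these genes were higher together in both morphine groups. They are the RefSeq windows from 250 bases before to 50 bases after the gene start on build GRCm38.p6, read along the gene's strand. The windows are chr6:5496229-5496528 on the minus strand for Pdk4, chr6:119388685-119388984 on the minus strand for Adipor2, chr3:96557707-96558006 on the plus strand for Txnip and chr10:59951721-59952020 on the minus strand for Ddit4. Capitals mark matches, on either strand, to any of 7 motifs named in the next paragraph.
Pdk4: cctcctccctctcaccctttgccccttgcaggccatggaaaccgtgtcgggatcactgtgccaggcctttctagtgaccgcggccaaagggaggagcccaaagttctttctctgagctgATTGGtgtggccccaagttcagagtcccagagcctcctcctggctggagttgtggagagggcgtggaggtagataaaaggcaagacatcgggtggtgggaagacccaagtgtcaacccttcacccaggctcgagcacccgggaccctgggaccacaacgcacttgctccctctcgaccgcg
Adipor2: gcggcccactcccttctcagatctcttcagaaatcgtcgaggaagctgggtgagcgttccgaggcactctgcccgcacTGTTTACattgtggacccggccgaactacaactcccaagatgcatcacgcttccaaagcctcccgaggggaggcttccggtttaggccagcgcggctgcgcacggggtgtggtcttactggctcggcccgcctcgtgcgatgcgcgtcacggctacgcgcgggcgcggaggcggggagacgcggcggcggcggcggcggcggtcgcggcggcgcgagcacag
Txnip: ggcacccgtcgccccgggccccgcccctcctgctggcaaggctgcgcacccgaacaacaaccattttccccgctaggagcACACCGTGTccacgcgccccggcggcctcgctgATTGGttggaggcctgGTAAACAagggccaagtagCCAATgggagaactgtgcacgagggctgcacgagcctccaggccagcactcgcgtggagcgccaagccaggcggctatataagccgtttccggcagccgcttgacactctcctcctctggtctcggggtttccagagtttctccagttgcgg
Ddit4: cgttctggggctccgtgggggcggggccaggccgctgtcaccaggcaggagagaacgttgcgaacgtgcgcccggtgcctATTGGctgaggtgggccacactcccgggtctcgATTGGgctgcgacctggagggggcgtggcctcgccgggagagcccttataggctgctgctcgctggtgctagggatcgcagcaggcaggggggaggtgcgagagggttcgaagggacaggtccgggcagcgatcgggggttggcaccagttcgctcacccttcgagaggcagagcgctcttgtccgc

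The search covered 12 windows of 9 of the 10 genes, and Angptl4 had no entry. The full glucocorticoid response element, AGAACA and TGTTCT with 3 bases between them, found in 0.00913% of all 32851 promoter windows, matched 0 of the 12. Its core ACANNNTGT, in 6.85% of all windows, matched 1, that of Txnip. The FoxO element GTAAACA, bound by fasting-activated forkhead factors and found in 3.65% of all windows, matched in Adipor2, in Txnip and in 1 of the 2 windows of Adipor1. The E-box CACGTG (7.15% of all windows) matched in Pdk2, and the PPAR direct repeat, AGGTCA repeated with 1 base between (0.0396%), in 0 windows. The CCAAT box (37.4%) matched in Pdk4, Txnip, Ddit4, Pdk2, Pdk3, Cpt1a and Adipor1, while the TATA box TATAAA (13.6%) matched in 0. In Txnip the 4 matches did not overlap. These matches describe letters in a short window and say nothing of binding.

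Against saline, 4 of the 10 genes were past the threshold of limma, a linear model fitted across all probe sets with Benjamini-Hochberg adjustment (adjusted p under 0.05), in each of the morphine groups. This describes the differences from which the genes were proposed and is no test of them. In butyrate-morphine striatum the 4 were Pdk4, Adipor2, Txnip and Ddit4, where 2.35% of all tested probe sets were called, 1.76% as higher and 0.592% as lower. In morphine striatum it was so for the same 4, where 2.45% of all tested probe sets were called, 1.3% as higher and 1.15% as lower. The remaining 6 genes were not called in either comparison. All butyrate-morphine arrays lay above all saline arrays for 5 of the 10 genes and below them for 0, beside 7.22% and 4.57% of all probe sets. All morphine arrays lay above for 4 and below for 1, beside 3.93% and 4.17%. Because both comparisons share the saline arrays and the members were proposed from them, nothing is read from these counts. The median over the 10 genes was 0.14 in butyrate-morphine and 0.07 in morphine striatum, beside 0.01 and -0.003 over all tested probe sets. Markers of the choroid plexus were also higher in both morphine groups, with means of 0.87 to 1.17 in butyrate-morphine and 1.21 to 1.44 in morphine arrays, against -0.13 to 0.13 in saline arrays. In such bulk RNA, more cells of a type and more RNA per cell cannot be told apart.

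**Figure D1:**
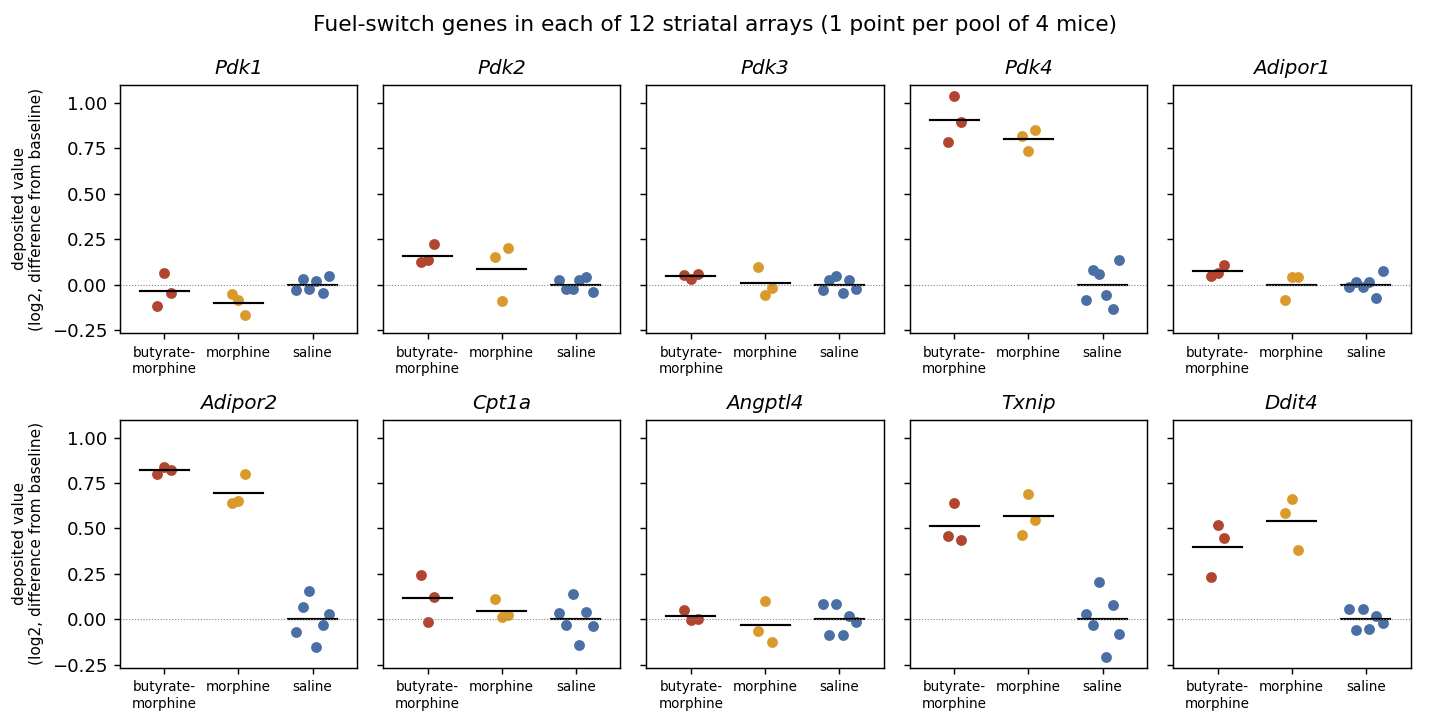
Deposited values (vertical axis, log2 difference from baseline) of the 10 genes in every array, 1 point per pool of 4 mice, with butyrate-morphine, morphine and saline arrays from left to right and a bar at each group mean. Pdk4, Adipor2, Txnip and Ddit4 lie above all 6 saline arrays in all 6 arrays of the morphine groups, while the other genes stay within -0.17 and 0.24.

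Among the 4 kinases, Pdk4 alone was called against saline in both groups. Pdk4 was at 0.78, 1.04 and 0.90 in the butyrate-morphine arrays and at 0.82, 0.73 and 0.85 in the morphine arrays, against a lowest, median and highest value of -0.13, 0 and 0.13 across saline arrays. Every array of the morphine groups was above every saline array. The mean was 0.91 ± 0.13 (SD, n = 3) in butyrate-morphine striatum, 1.87-fold saline, and 0.80 ± 0.06 (SD, n = 3) in morphine striatum, 1.74-fold saline, with an SD of 0.11 over the 6 mirrored saline arrays. Ordered from the highest of 21780 probe sets, Pdk4 held rank 11 in the butyrate-morphine comparison and rank 17 in the morphine comparison.

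The other kinases, which act on the same complex, stayed nearer to saline. Pdk2, the most widely expressed of the family, was at 0.12, 0.13 and 0.22 in the butyrate-morphine arrays and at 0.15, -0.09 and 0.20 in the morphine arrays, against -0.04 to 0.04 across saline arrays. Its butyrate-morphine arrays lay above all saline arrays while its morphine arrays overlapped saline because of array 2. Without morphine array 2, Pdk2 passed the threshold in both comparisons, at 0.16 in butyrate-morphine and 0.18 in morphine striatum, and with only butyrate-morphine and saline arrays in the fit it passed at 0.16. Pdk1, a target of hypoxia-inducible factor, was at -0.12, 0.06 and -0.05 in the butyrate-morphine arrays and at -0.05, -0.09 and -0.17 in the morphine arrays, against -0.04 to 0.04 across saline arrays. Its morphine arrays lay just below all saline arrays without passing the threshold. Pdk3, on the X chromosome, was between 0.03 and 0.06 in the butyrate-morphine arrays and between -0.06 and 0.10 in the morphine arrays, against -0.05 to 0.05 across saline arrays, and overlapped saline in both groups.

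Of the adiponectin receptors, Adipor2 was called against saline in both groups and Adipor1 in neither. Adipor2 was at 0.80, 0.84 and 0.82 in the butyrate-morphine arrays and at 0.64, 0.65 and 0.80 in the morphine arrays, against -0.15, 0 and 0.15 as lowest, median and highest across saline arrays. No array of the morphine groups came near the saline range. Its mean was 0.82 ± 0.02 (SD, n = 3) in butyrate-morphine striatum, 1.76-fold saline, and 0.70 ± 0.09 (SD, n = 3) in morphine striatum, 1.62-fold saline, with an SD of 0.11 in saline. It ranked 12 in the butyrate-morphine and 21 in the morphine comparison. Adipor1, the receptor tied to AMP-activated kinase, was at 0.04, 0.07 and 0.11 in the butyrate-morphine arrays and at -0.09, 0.04 and 0.04 in the morphine arrays, against -0.08 to 0.08 across saline arrays. Both groups overlapped saline for this gene.

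Txnip and Ddit4, which restrain growth and glucose use, followed with smaller mean differences. Txnip, an alpha-arrestin that lowers glucose transporters at the cell surface and binds thioredoxin, was at 0.46, 0.64 and 0.44 in the butyrate-morphine arrays and at 0.47, 0.69 and 0.55 in the morphine arrays, against -0.20, 0 and 0.20 as lowest, median and highest across saline arrays. Its mean was 0.51 ± 0.11 (SD, n = 3) in butyrate-morphine striatum, 1.43-fold saline, and 0.57 ± 0.11 (SD, n = 3) in morphine striatum, 1.48-fold saline, and no array of these groups overlapped saline. Its saline SD, 0.14, was the widest of the 10 genes.

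Ddit4 (REDD1), a stress-induced inhibitor of the growth kinase complex mTORC1, was at 0.23, 0.52 and 0.45 in the butyrate-morphine arrays and at 0.58, 0.66 and 0.38 in the morphine arrays, against -0.06, 0 and 0.06 as lowest, median and highest across saline arrays. All arrays of both groups lay above saline, with butyrate-morphine array 1 the lowest. Its mean was 0.40 ± 0.15 (SD, n = 3) in butyrate-morphine striatum, 1.32-fold saline, and 0.54 ± 0.14 (SD, n = 3) in morphine striatum, 1.46-fold saline.

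Txnip and Ddit4 fell short of the threshold in some of the alternative fits. Quantile normalization ended the call of Txnip in both comparisons (0.36 in butyrate-morphine, 0.40 in morphine) and of Ddit4 in butyrate-morphine striatum (0.29). In butyrate-morphine striatum both calls also ended with saline arrays 1, 3 and 5 alone (Txnip 0.41, Ddit4 0.35), and that of Ddit4 with saline arrays 2, 4 and 6 alone (0.44) or without butyrate-morphine array 2 (0.34). A replicate block over arrays numbered 1 to 3 ended the calls of both genes in both comparisons. Txnip was then at 0.44 in butyrate-morphine and 0.50 in morphine striatum, and Ddit4 at 0.38 and 0.52.

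Cpt1a and Angptl4 were not called in either group. Cpt1a, whose product admits long-chain fatty acids to mitochondria and is the rate-limiting step of their oxidation, was at 0.24, -0.01 and 0.12 in the butyrate-morphine arrays and at 0.11, 0.01 and 0.02 in the morphine arrays, against -0.14 to 0.14 across saline arrays. Angptl4, a secreted inhibitor of lipoprotein lipase that fasting induces outside the brain, had a mean of 0.02 ± 0.03 (SD, n = 3) in butyrate-morphine and -0.03 ± 0.12 (SD, n = 3) in morphine striatum, against -0.09 to 0.09 across saline arrays. For both genes the groups overlapped.

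The butyrate-morphine group was set against the morphine group to ask whether sodium butyrate given with morphine altered these genes. Between butyrate-morphine and morphine striatum, limma called 0 of 10 genes at an adjusted p under 0.05, where 0% of all 21780 probe sets were called. At an unadjusted p under 0.05 it found 0 of the 10 and 1898 of all probe sets. The largest difference upward was that of Adipor2, 0.12 (95% interval -0.03 to 0.27, adjusted p = 0.658 by limma), with means of 0.82 in butyrate-morphine and 0.70 in morphine striatum. Pdk4 differed by 0.11 (-0.06 to 0.27, adjusted p = 0.746 by limma). The lowest difference was that of Ddit4, -0.14 (-0.31 to 0.03, adjusted p = 0.640 by limma), with means of 0.40 in butyrate-morphine and 0.54 in morphine striatum. Txnip, at -0.06 (-0.26 to 0.14, adjusted p = 0.917 by limma), was the only other gene with a lower mean in butyrate-morphine striatum.

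The other 6 genes had differences between 0.04 for Pdk3 and 0.07 for Pdk1, Pdk2, Adipor1 and Cpt1a, with adjusted p between 0.711 and 0.896 by limma. Their 95% intervals had lower ends between -0.09 (Angptl4) and -0.03 (Adipor1) and upper ends between 0.13 (Pdk3) and 0.23 (Cpt1a). In all, 8 of the 10 genes had a higher mean in butyrate-morphine striatum, beside 57% of all probe sets, and the median of the 10 was 0.07 beside 0.01 over all probe sets. Arrays of the groups did not overlap for Adipor1 alone, whose lowest butyrate-morphine array (0.0444) was just above its highest morphine array (0.0438), as for 7.73% of all probe sets. The reverse order held for 0 of the 10 and for 3.11% of all probe sets. The intervals reach 0.27 for both Pdk4 and Adipor2 and -0.31 for Ddit4, so differences of that size are not excluded. These intervals use a spread shared with the mirrored saline arrays. They may therefore be too narrow, and larger differences could be missed too.

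**Figure D2:**
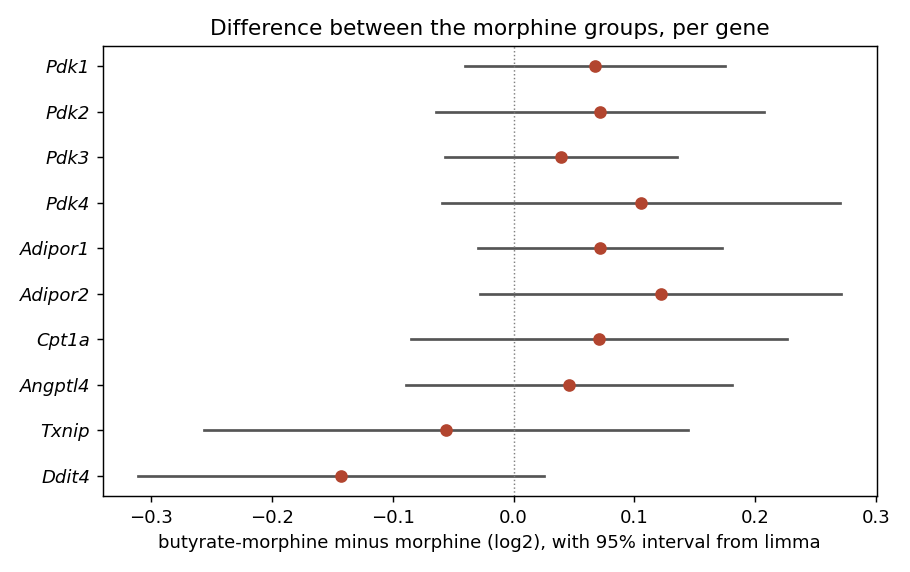
Difference between butyrate-morphine and morphine striatum (horizontal axis, log2) for each of the 10 genes, with the 95% interval from limma as a line. All 10 intervals include 0, and the points run from -0.14 for Ddit4 to 0.12 for Adipor2.

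Genes of the same pathways that are not among the 10 were read from 8 lists, which held 130 genes, 117 of them measured by 127 probe sets. In butyrate-morphine striatum 7 of these probe sets rose and 1 fell, 6.3% in all, beside 1.76% of all probe sets called as higher and 0.592% as lower, with a median of 0.02 beside 0.01 over all probe sets. In morphine striatum 3 rose and 1 fell, 3.15% in all, beside 1.3% and 1.15% of all probe sets, with a median of 0.003 beside -0.003 over all probe sets. Between butyrate-morphine and morphine striatum 0 were called by limma, and 10 had an unadjusted p under 0.05, as did 8.71% of all probe sets. Against saline, 17.2% of all probe sets had an unadjusted p under 0.05 in butyrate-morphine and 15.4% in morphine striatum, beside which the list counts that follow should be read. Because the lists were chosen with earlier results of these data known, their counts against saline are a description too. With a replicate block over arrays numbered 1 to 3, only Klf15 and Trp53inp1 of the listed genes were called against saline.

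Enzymes of pyruvate entry, fat oxidation and glycolysis did not pass the test, apart from single genes in some alternative fits. None of the 11 probe sets for the pyruvate dehydrogenase complex, its phosphatases and pyruvate carriers was called in any of the 3 comparisons, with medians of 0.11 in butyrate-morphine and 0.04 in morphine striatum. At an unadjusted p under 0.05 limma found 3 of them in butyrate-morphine and 0 in morphine striatum. Dlat, the acetyltransferase core of the complex, had the lowest p of the list, at 0.11 in butyrate-morphine (adjusted p = 0.160 by limma) and 0.02 in morphine striatum. Of 21 probe sets for the carnitine shuttle and fatty acid oxidation, 0 were called, with a median of 0.03 and 4 at an unadjusted p under 0.05 in butyrate-morphine, and 0.003 and 2 in morphine striatum. Acads, the short-chain acyl-CoA dehydrogenase, was at -0.16 in butyrate-morphine and -0.15 in morphine striatum (adjusted p = 0.0727 and 0.0895 by limma). In butyrate-morphine striatum the carnitine palmitoyltransferase gene Cpt2 passed with array weights (0.12) or only the compared groups in the fit (0.11), and the dehydrogenase gene Hadh with array weights (0.19), both named after their values were seen.

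Of 22 glycolysis probe sets for 15 genes, 0 were called, with medians of -0.01 in butyrate-morphine and -0.02 in morphine striatum and 1 and 2 at an unadjusted p under 0.05 in those groups. Pfkl, the liver-type phosphofructokinase, was at -0.10 in butyrate-morphine and -0.20 in morphine striatum (adjusted p = 0.0824 by limma in morphine striatum). Of 23 probe sets for adiponectin, AMP-activated kinase and the receptors related to Adipor2, 0 were called, with 5 at an unadjusted p under 0.05 in butyrate-morphine and 3 in morphine striatum. Camkk2, a kinase that activates AMP-activated kinase, was at -0.09 in butyrate-morphine and -0.20 in morphine striatum (adjusted p = 0.131 by limma). In the same list Ppargc1a, a coactivator of mitochondrial genes named after its values were seen, passed in butyrate-morphine striatum without butyrate-morphine array 3 (0.31). Without morphine array 1, Pfkl (-0.27) and Camkk2 (-0.31) fell in morphine striatum, and without butyrate-morphine array 2 Pfkl passed there too, at the same -0.20.

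Among 17 transcription factors of the fasting response, Klf15 rose in both groups. Klf15, a factor induced by fasting and glucocorticoids that drives amino acid breakdown in liver and muscle, was at 0.60, 0.41 and 0.46 in the butyrate-morphine arrays and at 0.59, 0.52 and 0.44 in the morphine arrays, against -0.12 to 0.12 across saline arrays. The means were 0.49 (1.41-fold, adjusted p = 0.000465 by limma) and 0.52 (1.43-fold, adjusted p = 0.000324 by limma), and it passed in all 12 fits that left out an array. The list was chosen with earlier results known, so this is no sign of stability. Cebpd, an acute-phase and fat-cell factor, rose by 0.20 ± 0.07 in butyrate-morphine striatum (SD, n = 3, adjusted p = 0.0412 by limma) and was at 0.12 in morphine striatum. That call was lost without butyrate-morphine array 1 or 3 or saline array 1, 2, 4 or 5, and by centring arrays on their median (0.19, adjusted p = 0.0519 by limma), quantile normalization (0.15), trended robust eBayes, or either set of 3 saline arrays (0.19 and 0.20). The other 15 factors were not called.

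The mTORC1 list of 13 probe sets also holds the stress gene Trp53inp1. In morphine striatum Trp53inp1 alone rose and Ddit4l alone fell, while in butyrate-morphine striatum Trp53inp1 and Sesn1 rose and 0 fell. Trp53inp1, a stress-induced gene that promotes autophagy, was at 0.64, 0.69 and 0.65 in the butyrate-morphine arrays and at 0.45, 0.56 and 0.42 in the morphine arrays, against -0.14 to 0.14 across saline arrays. It rose 1.58-fold in butyrate-morphine (0.66, adjusted p = 6.48e-05 by limma) and 1.39-fold in morphine striatum (0.47, adjusted p = 0.000969 by limma), a morphine call that quantile normalization ended (0.34). Its butyrate-morphine arrays all lay above its morphine arrays, but the difference of 0.19 was not called (0.04 to 0.34, adjusted p = 0.470 by limma). Ddit4l, the paralog of Ddit4, fell by 0.38 in morphine striatum (adjusted p = 0.0177 by limma), where its arrays were at -0.17, -0.39 and -0.57, against -0.08 to 0.08 in saline. In butyrate-morphine striatum it was at -0.24 (adjusted p = 0.105 by limma). Without morphine array 3 the morphine value was -0.28 and no longer passed, while the butyrate-morphine value of -0.24 did pass without morphine array 1 or 3 or with only those groups in the fit. The morphine call of Ddit4l also ended under quantile normalization (-0.28), with saline arrays 1, 3 and 5 (-0.36) or 2, 4 and 6 (-0.40) alone and against the baseline at 0. Sesn1, a sestrin that inhibits mTORC1, rose by 0.20 in butyrate-morphine striatum (adjusted p = 0.0166 by limma), a call lost without butyrate-morphine array 1 (0.19) or 2 (0.17), under quantile normalization (0.15), under trended robust eBayes and with either set of 3 saline arrays (0.21 and 0.19), and was at 0.14 in morphine striatum.

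Of 10 alpha-arrestin and thioredoxin probe sets, Arrdc3 and Arrdc2, relatives of Txnip, rose in butyrate-morphine striatum, by 0.28 (adjusted p = 0.0467 by limma) and 0.23 (adjusted p = 0.0339 by limma). Arrdc3 rose by 0.29 in morphine striatum (adjusted p = 0.0402 by limma), where Arrdc2 was at 0.16. With 1 array left out, the call of Arrdc3 held in 4 of 12 fits in the butyrate-morphine comparison, without butyrate-morphine array 3, morphine array 1 or 2 or saline array 5. In the morphine comparison it held in 3, without butyrate-morphine array 2 or 3 or saline array 5. The call of Arrdc2 was lost without butyrate-morphine array 1 or 2 or any of saline arrays 1 to 5. Quantile normalization (Arrdc2 0.18, Arrdc3 0.21 in butyrate-morphine and 0.22 in morphine striatum), trended robust eBayes, either set of 3 saline arrays and the baseline at 0 each ended all 3 of these calls. Those of Arrdc3 also ended with all rows tested, in butyrate-morphine striatum with median centring (0.27) and in morphine striatum with array weights (0.28). Of 10 probe sets for angiopoietin-like genes and lipases, Pnpla2, the triglyceride lipase that starts fat breakdown, rose by 0.35 ± 0.07 in butyrate-morphine striatum (SD, n = 3, 1.28-fold, adjusted p = 0.00184 by limma). Its butyrate-morphine arrays were at 0.32, 0.44 and 0.31 and its morphine arrays at 0.25, 0.17 and 0.18, against -0.12 to 0.12 across saline arrays. In morphine striatum it was at 0.20 (adjusted p = 0.0511 by limma), and passed with 1 value per gene (adjusted p = 0.0476 by limma), without butyrate-morphine array 2 and without saline array 1 (0.22). Its butyrate-morphine call ended under quantile normalization (0.27) and with the replicate block (0.36). The difference between butyrate-morphine and morphine striatum was 0.16 (0.04 to 0.28, adjusted p = 0.458 by limma). Angptl6, a relative of Angptl4, fell by 0.22 in butyrate-morphine striatum (adjusted p = 0.0400 by limma), a call lost without any 1 of the butyrate-morphine arrays or saline array 1, 4, 5 or 6, and under quantile normalization (-0.20), trended robust eBayes, either set of 3 saline arrays (-0.21 and -0.24) or the baseline at 0. In morphine striatum Angptl6 was at -0.16, passing at -0.21 without morphine array 1.

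**Figure D3:**
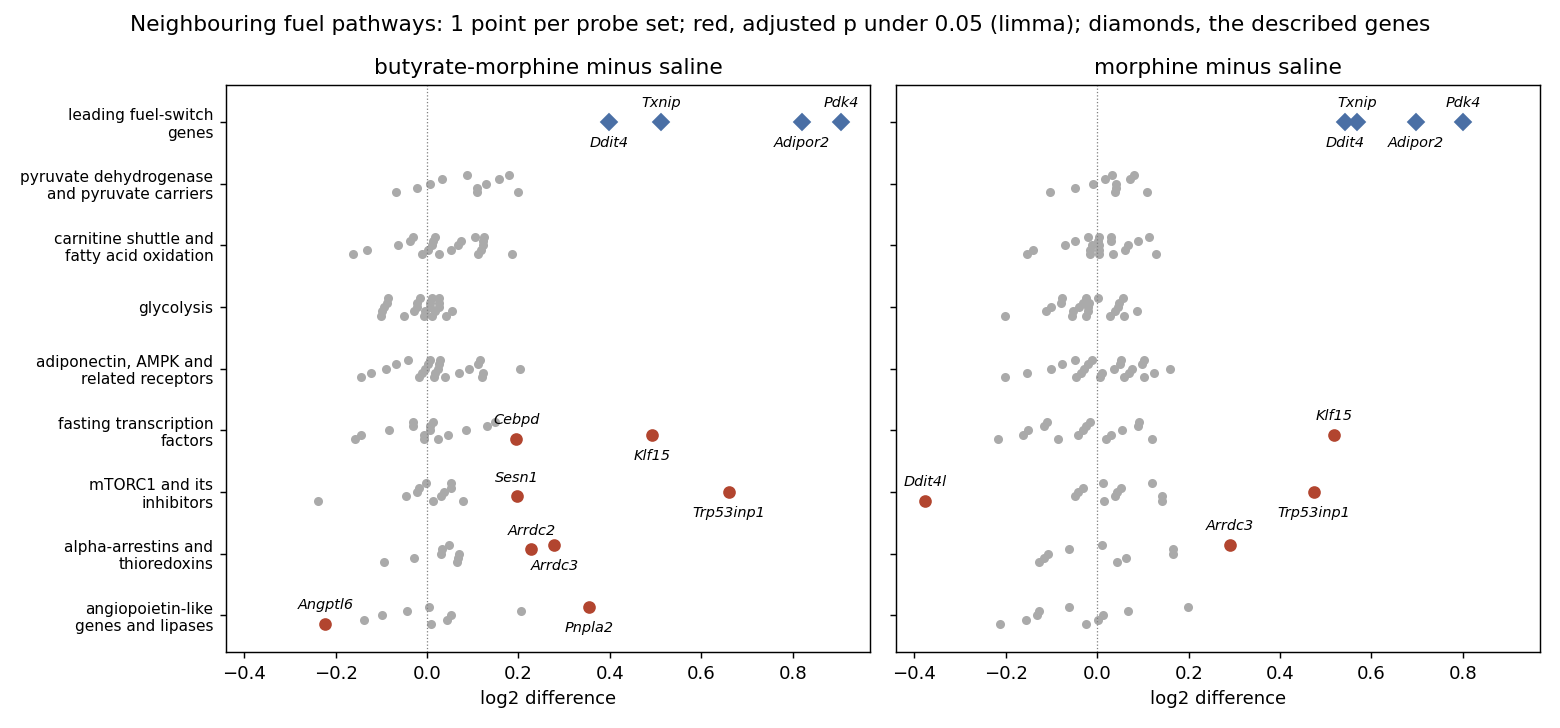
Log2 differences from saline (horizontal axis) in butyrate-morphine striatum, left, and morphine striatum, right, with 1 point per probe set and 1 row per pathway list. Red points passed an adjusted p under 0.05 in limma, grey points did not, and blue diamonds are Pdk4, Adipor2, Txnip and Ddit4, which lie between 0.40 and 0.91 on the left and between 0.54 and 0.80 on the right.

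The genes whose values came closest to Pdk4 over the 6 arrays of the morphine groups were sought by the root mean square difference. This measure takes in the size of the difference from saline, by which Pdk4 and Adipor2 were both proposed, so the value of 0.119 between them is only a description. Outside the 10 genes, the nearest were the activity-dependent factor Npas4 (0.145), the choroid plexus chloride channel gene Clic6 (0.149), Tiparp (0.174), the NF-kappaB inhibitor Nfkbia (0.189) and the phosphatase gene Dusp1 (0.197). For Adipor2 they were Tiparp (0.0758), Nfkbia (0.0968), Clic6 (0.123), Npas4 (0.161) and the small nucleolar RNA Snord14e (0.199). Tiparp, a mono-ADP-ribosyltransferase induced through the aryl hydrocarbon receptor, was at 0.73 in butyrate-morphine and 0.69 in morphine striatum.

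Markers of several cell types moved in the same arrays. Of 9 measured choroid plexus markers of 10, 8 rose in butyrate-morphine and 9 in morphine striatum, and their mean per array was 1.17, 0.87 and 1.15 in butyrate-morphine and 1.37, 1.44 and 1.21 in morphine striatum. Pdk4 (1.04) and Adipor2 (0.84) were highest in butyrate-morphine array 2, the array of the morphine groups with the lowest choroid plexus mean (0.87). Txnip (0.69) and Ddit4 (0.66) were highest in morphine array 2, the array with the highest choroid plexus mean (1.44). These are extremes of single arrays, and Adipor2 differed little among the butyrate-morphine arrays (0.80, 0.84 and 0.82). No relation between these genes and the markers across arrays was tested. Endothelial markers fell, 4 of 8 in each comparison, with means of -0.26 to -0.16 in butyrate-morphine and -0.33 to -0.25 in morphine arrays, against -0.05 to 0.05 in saline arrays. Of 8 astrocyte markers 1 rose in each comparison, with means of 0.07 to 0.17 in butyrate-morphine and 0.08 to 0.14 in morphine arrays, against -0.04 to 0.04 in saline arrays. Of 7 oligodendrocyte markers 0 were called, with means of -0.0009 to 0.16 in butyrate-morphine and -0.11 to 0.05 in morphine arrays, against -0.12 to 0.12 in saline arrays. Microglial markers fell, 2 of 7 in butyrate-morphine and 3 of 7 in morphine striatum, with means of -0.23 to -0.15 and -0.24 to -0.20 in those groups, against -0.06 to 0.06 in saline arrays. Of the 8 striatal projection neuron markers 0 fell in butyrate-morphine and 3 in morphine striatum, with means of -0.04 to 0.0007 and -0.17 to -0.13 in those groups, against -0.05 to 0.05 in saline arrays.

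Markers of neighbouring regions varied between arrays of 1 group. The mean of 8 thalamic and septal markers was -0.09 to 0.44 in the butyrate-morphine and 0.08 to 0.63 in the morphine arrays, against -0.02 to 0.02 in saline arrays, with 0 called as higher in butyrate-morphine and 3 in morphine striatum. Of 5 measured cortical markers 0 were called, with means of -0.17 to 0.05 in butyrate-morphine and -0.67 to 0.10 in morphine arrays, against -0.08 to 0.08 in saline arrays. Of 8 meningeal markers 1 rose in butyrate-morphine and 2 in morphine striatum, with means of 0.07 to 0.22 and 0.14 to 0.37 in those groups, against -0.08 to 0.08 in saline arrays. The part of any of these cell types in the rise of Pdk4, Adipor2, Txnip and Ddit4 was not tested.

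**Figure D4:**
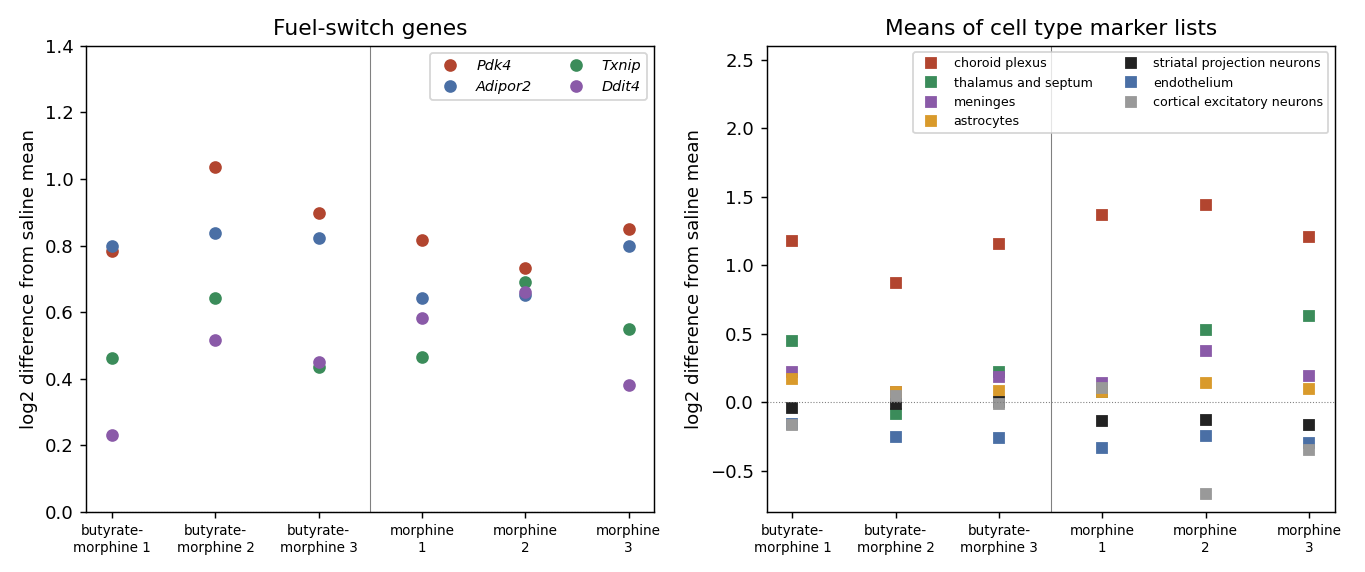
Log2 difference from the saline mean (vertical axes) in the 3 butyrate-morphine and 3 morphine arrays, for Pdk4, Adipor2, Txnip and Ddit4 on the left and for the means of 7 marker lists on the right. The choroid plexus mean is between 0.87 and 1.44. It is lowest in butyrate-morphine array 2 and highest in morphine array 2.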

How the data were processed

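The values analysed are those the authors deposited, centred log values for 28815 rows and 12 arrays, read as log2 although no label or header states the base. Steps of background correction, normalization and summarisation were not given in the sources used here. Among the deposited log2 values each saline pair sums to 0 within 1e-06. Per the labels' protocols, arrays are biological replicates of pooled RNA. Separate cohorts are not mentioned, so a p-value reflects variation among these pools at most. All comparisons share a spread estimate that leaves out differences between saline pairs, which are absent from the deposited values.

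Of all rows, 21780 with 1 gene symbol in the platform annotation were tested, while 1605 with several symbols and 5430 with none were not. The fit used limma 3.58.1 (R 4.3.3; lmFit, eBayes, 3 group means, 9 residual and 3.87 prior degrees of freedom), with Benjamini-Hochberg adjustment over the tested probe sets and a threshold of 0.05. The fit was tested on simulated data in which all arrays were independent. The simulation held no mirrored saline pairs, so it cannot show how the fit behaves with them. The 10 genes, 8 pathway lists and 9 marker lists were chosen with earlier results of these data known. From each pathway list the text names genes past the threshold in any comparison (at most 5), or else the gene with the lowest p. The 5 genes nearest to Pdk4 and Adipor2 leave out predicted genes and the 10 themselves. Refits used quantile normalization, arrays centred on their median, every row, a trended robust eBayes, array weights, the compared groups alone, a replicate block, subsets of saline arrays, 0 in place of the saline arrays, a threshold of 0.1, 1 value per gene, and each array left out. The number of arrays limits the precision.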

Additional observations from a re-analysis of the deposited data

How the results depend on the processing

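In 192 refits of the differences of Pdk4, Adipor2, Txnip and Ddit4 from saline, 11 for Txnip or Ddit4 missed the threshold; the genes were proposed from these differences, so this is no sign of stability. The count of the 10 genes called was 4 in each comparison with saline. It became 2 in butyrate-morphine with quantile normalization and with saline arrays 1, 3 and 5, and with 1 array left out it was 3 to 5 in butyrate-morphine and 4 to 5 in morphine striatum. Between butyrate-morphine and morphine it was 0 in every fit run. The replicate numbers gave no sign of pairing: same-numbered arrays of these groups deviated with correlations of -0.105, -0.267 and -0.226, and 0 of 3 butyrate-morphine arrays correlated best with its own number. Butyrate-morphine arrays 1, 2 and 3 correlated best with morphine arrays 3, 1 and 2 (0.156, 0.231 and 0.306). A pairing in another order was not tested. With the number as a replicate block over 9 arrays, 2 of the 10 genes were called in each comparison with saline, Pdk4 and Adipor2. Over all probe sets 38 were called in butyrate-morphine and 49 in morphine striatum, with 2 pathway genes in each, Klf15 and Trp53inp1. This fit held saline arrays 1 and 2, which mirror each other, and 3 without its partner. Its saline mean is thus not fixed at 0, and it is no clean check of pairing.

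Over all probe sets, 512 calls in butyrate-morphine became 97 with quantile normalization, 218 with trend and robust, 978 with array weights, 1134 with only the groups compared, 135 with saline arrays 1, 3 and 5 and 135 with 2, 4 and 6, 1108 at a threshold of 0.1 and 206 (butyrate-morphine array 1 left out) to 807 (morphine array 2 left out). In morphine striatum 534 became 70 with quantile normalization, 222 with trend and robust, 102 with saline arrays 1, 3 and 5, 166 with 2, 4 and 6, 290 against the baseline at 0, 1015 at a threshold of 0.1 and 219 (morphine array 3 left out) to 1092 (morphine array 1 left out). Calls that were higher made up 53.2% there, 80% after quantile normalization, 71.6% with saline arrays 1, 3 and 5, 48.9% at a threshold of 0.1 and 39.8% (435 higher, 657 lower) without morphine array 1. Between butyrate-morphine and morphine the 0 calls became 1 with array weights and 0 to 27 with 1 array left out, the 27 when morphine array 1 was dropped and 12 when morphine array 3 was.

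The pathway lists' 8 calls in butyrate-morphine became 2 with quantile normalization, 3 with trend and robust, 3 with either set of 3 saline arrays, 5 against the baseline at 0, 13 at a threshold of 0.1 and 3 to 10 without 1 array. The 4 calls in morphine striatum became 1 with quantile normalization, 2 with either set of 3 saline arrays or against the baseline at 0, 10 at a threshold of 0.1 and 2 to 8 without 1 array. Between butyrate-morphine and morphine they were 0 to 1 without 1 array. The cause of these shifts was not tested. Dropping a saline array leaves its mirrored partner in the fit, so such a fit is not free of the dropped pool. Saline arrays spread less over probe sets (SD 0.052 to 0.0845) than the other arrays (SD 0.112 to 0.151), and quantile normalization makes these spreads equal.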
